A study of Mus musculus with 8 samples.

Results

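Wnt target and feedback genes are a set of 10 genes chosen by name: Axin2, Lef1, Tcf7, Sp5, Nkd1, Notum, Lgr5, Rnf43, Znrf3 and Apcdd1. All 10 were measured, by 22 spots in all, among 24583 genes on the array. Each gene was read from its brightest spot, by mean signal on the 8 arrays. The arrays held RNA of the left lung lobe of mouse embryos at E14.5 (embryonic day), taken 9 h after the pregnant female had received 0.0015 mg of doxycycline per g of body weight. Titles gave 4 arrays to an experimental and 4 to a control group, each numbered 1 to 4. Per the study's methods, all embryos were Rosa26 rtTA/rtTA, a ubiquitous transactivator, and all were exposed to doxycycline. Experimental embryos also carried Tg(tet(o)sFgfr2b)/+, and controls were their +/+ littermates. The transgene encodes a soluble Fgfr2b that cells release and that traps Fgf ligands such as Fgf10 outside the cell. Which arrays came from the same litter is not stated in the labels or methods, and p-values therefore measure the spread between these samples, which may be partly technical.

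In canonical Wnt signaling, a Wnt protein binds a Frizzled receptor and its Lrp co-receptor, the complex that degrades beta-catenin is held back, and beta-catenin enters the nucleus, where it joins a Tcf/Lef factor on DNA. Some of the genes switched on in this way encode inhibitors of the same pathway, and their transcripts are widely read as a gauge of its activity. In the embryonic lung, Wnt2 and Wnt2b come from the mesenchyme and Wnt7b from the epithelium, and canonical signaling is needed for the lung field to form and for the distal epithelium to grow.

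The titles were first set against Etv5, an Ets transcription factor that Fgf10 induces in the distal epithelium. Its normalized log2 signal was 10.42, 10.43, 13.12 and 13.26 on the arrays titled experimental 1 to 4, and 10.09, 10.57, 13.18 and 13.26 on those titled control 1 to 4. Etv5 thus did not separate the titled groups (difference 0.03, 95% confidence interval −2.22 to 2.28). With the title number as a block the interval was −0.26 to 0.33. Etv5 was lower on the arrays numbered 1 and 2 of both groups than on those numbered 3 and 4. For this reason the arrays are called titled experimental or titled control throughout, and each signed difference between them rests on the titles alone. Whether the titles give each array's genotype could not be settled. A small difference between titled groups is therefore not read as a lack of effect of the transgene. The arrays numbered 1 and 2 are called lower-numbered and those numbered 3 and 4 higher-numbered. That division follows the titles, but it was noticed in these data, so all values given by it are a description and no test was made on it. Xist, the transcript of the inactive X chromosome, was 2.98 to 3.63 on the arrays numbered 1 and 3 and 7.45 to 8.21 on those numbered 2 and 4, so this sex-linked transcript did not go with the lower and higher numbers. The labelled tissue was borne out by Nkx2-1, the lung epithelial transcription factor, at 10.39 to 11.38, and by the surfactant gene Sftpc at 14.37 to 15.99, the top of the scale.

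None of the 10 genes passed between the titled groups. By limma's moderated test, 0 of 10 had an adjusted p under 0.05, as did 0 of all 24583 genes (0.00%), and an unmoderated form of the test and the fit with the title number as a block also gave 0. At an unadjusted p under 0.05 limma had 0 of the 10 genes and 876 of all genes (3.56%), the unmoderated form had 788 of all genes, and the blocked fit had 1 of the 10, Tcf7, and 1182 of all genes (4.81%). By sign 5 of the genes were higher and 5 lower on the arrays titled experimental, with a median difference of 0.01 on the log2 scale, against 0.00 over all genes. The titled groups overlapped in each of the 10 genes, whereas they did not overlap in 1.90% of all genes.

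By title number the picture was uneven. On 4 of the 10 genes, Sp5, Tcf7, Axin2 and Rnf43, all higher-numbered arrays lay above all lower-numbered arrays, and on 0 of the 10 did they lie below. Over all 24583 genes, the higher-numbered arrays lay wholly above in 5.39% and wholly below in 5.17%. Of the 12291 genes whose mean was above the median of all genes, as 9 of the 10 were, they lay wholly above in 8.88% and wholly below in 8.45%. The count of 4 fell to 2, Sp5 and Tcf7, when all spots of a gene were averaged. The median difference, higher-numbered minus lower-numbered, was 0.31 for the 10 genes and 0.00 for all genes.

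**Figure D1:**
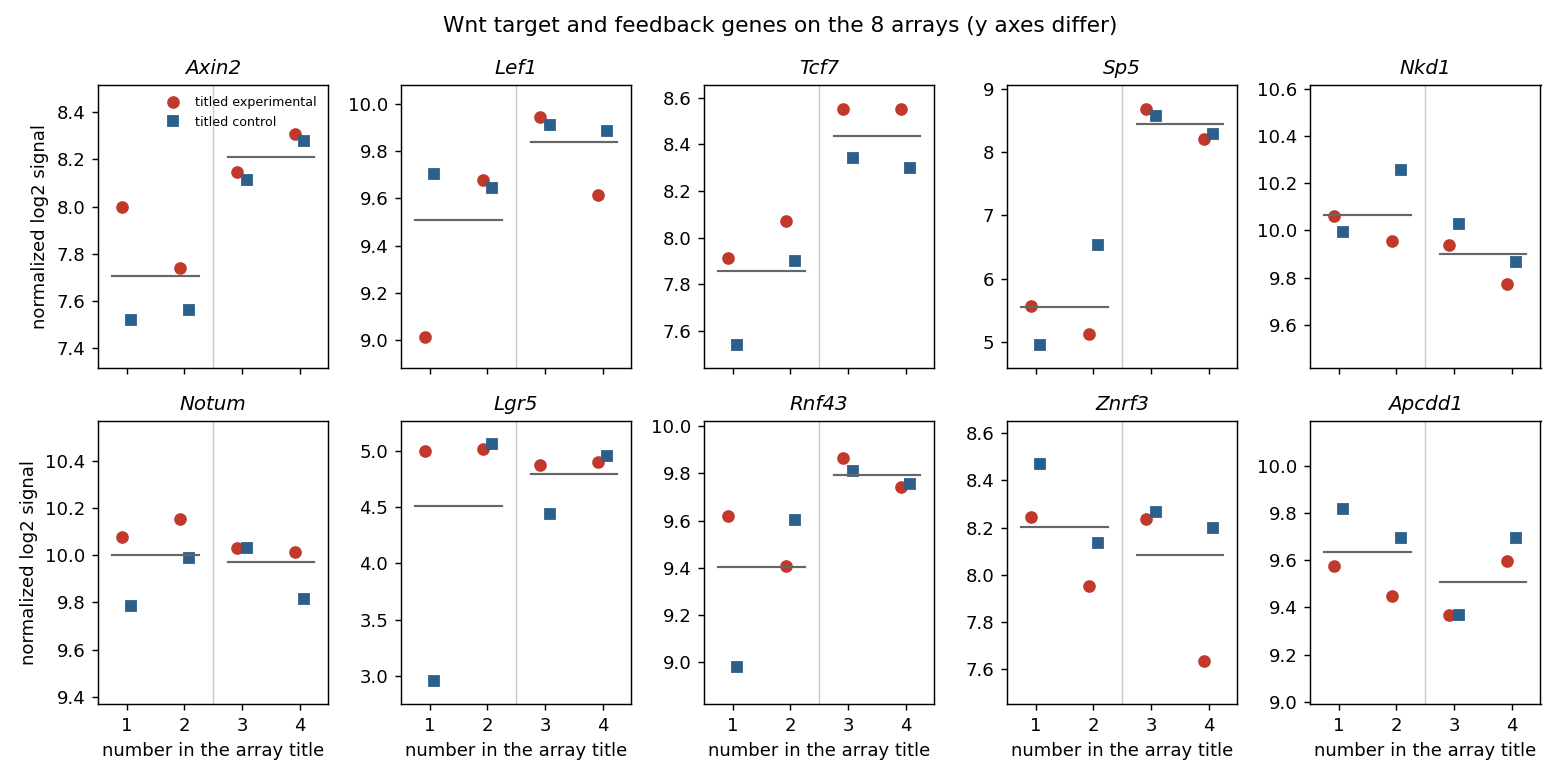
Normalized log2 signal of each of the 10 genes (brightest spot) against the number in the array title, for the 4 arrays titled experimental (circles) and the 4 titled control (squares). Grey bars are the means of the arrays numbered 1 and 2 and of those numbered 3 and 4, and the y axes differ between panels. Sp5 steps from 4.95 to 6.53 on the lower-numbered arrays up to 8.21 to 8.69 on the higher-numbered ones, Tcf7, Axin2 and Rnf43 step less, and the circles and squares overlap in every panel.

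Sp5 encodes a zinc-finger transcription factor of the Sp family and is a direct target of beta-catenin in the mouse embryo. Its signal was 5.56, 5.13, 8.69 and 8.21 on the arrays titled experimental 1 to 4, and 4.95, 6.53, 8.57 and 8.28 on those titled control 1 to 4. All 4 lower-numbered arrays were low and all 4 higher-numbered arrays were high in both titled groups, with a gap of 1.68 between the highest of the former and the lowest of the latter. The means were 5.54 and 8.44, a difference of 2.89 or 7.43-fold in signal, and the difference was 3.10 within the arrays titled experimental and 2.69 within those titled control. Omission of any single array left it at 2.70 to 3.22. Of all genes, 0.517% had higher-numbered arrays wholly above and means that differed by at least 1 log2 unit. Sp5 was the 1 gene of the 10 among them. Between the titled groups Sp5 differed by −0.19 (interval −2.58 to 2.21), or by −0.19 with an interval of −1.06 to 0.69 when the title number was a block. Within number 1 the array titled experimental was higher by 0.61, and within number 2 it was the lower (−1.4), while within numbers 3 and 4 the arrays differed by 0.12 and −0.07.

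The promoter of Sp5 is shown because Sp5 had the largest step of the 10 genes and because its window held more Tcf/Lef matches than that of any other gene of the set that was searched. The window runs from 250 bases before to 50 bases after the RefSeq start (chr2:70474673-70474972 in GRCm38.p6, plus strand), and capitals mark matches to a Tcf/Lef heptamer on either strand. The heptamers searched were CTTTGAA (ending in 2 adenines), CTTTGAT (ending in adenine and thymine), CTTTGTA (the reverse ending) and CTTTGTT (ending in 2 thymines).
Sp5 promoter: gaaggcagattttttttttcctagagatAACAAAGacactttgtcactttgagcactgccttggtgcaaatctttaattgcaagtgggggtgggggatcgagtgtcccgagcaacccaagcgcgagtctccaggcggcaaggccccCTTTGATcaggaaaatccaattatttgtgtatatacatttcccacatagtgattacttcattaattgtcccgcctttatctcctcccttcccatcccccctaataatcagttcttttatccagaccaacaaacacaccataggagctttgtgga
The first match read CTTTGTT on the opposite strand, from −222 to −216 relative to the start, and the second read CTTTGAT on the strand of the gene, from −104 to −98. Of 32851 promoter windows of this length, 16.9% held at least 1 such match. A match is a description of the sequence only.

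Tcf7 encodes Tcf1, one of the nuclear factors through which beta-catenin acts, and is itself a Wnt target. Its signal was 7.91, 8.07, 8.55 and 8.55 on the arrays titled experimental 1 to 4, and 7.54, 7.90, 8.34 and 8.30 on those titled control 1 to 4. The higher-numbered arrays lay above the lower-numbered ones by 0.58 (1.5-fold), and by 0.56 and 0.6 within the arrays titled experimental and control. All 3 spots of Tcf7 showed this separation, by 0.58, 0.62 and 1.08, the last from a dimmer spot at 3.78 to 5.66. Within each number the array titled experimental was also the higher of the pair, by 0.37, 0.17, 0.21 and 0.26. The titled groups differed by 0.25 ± 0.23 (SE, n = 4 each, interval −0.27 to 0.77), by 0.09 without control 1 and by 0.12 with the mean of all spots. With the title number as a block the interval was 0.02 to 0.48 (limma, unadjusted p = 0.038, adjusted p = 0.999), so Tcf7 did not pass over all genes. The second spot went the other way between titled groups, by −0.05, and the third by 0.17.

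Lef1 encodes the related factor. Its signal was 9.02, 9.68, 9.95 and 9.61 on the arrays titled experimental 1 to 4, and 9.70, 9.65, 9.91 and 9.89 on those titled control 1 to 4. The lowest value was that of the array titled experimental 1, and the lower- and higher-numbered arrays overlapped through experimental 4. The higher-numbered arrays had a mean 0.33 higher, and the titled groups differed by −0.22 ± 0.19 (SE, interval −0.67 to 0.22), or by −0.04 without experimental 1. Its other 2 spots, at 2.39 to 3.41, lay close to the lowest value of the data, 2.00, and are not read.

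Of the genes that act inside the cell to restrain the pathway, Axin2, the scaffold of the complex that degrades beta-catenin and the most widely used reporter of the pathway, had 8.0, 7.74, 8.15 and 8.31 on the arrays titled experimental 1 to 4 and 7.52, 7.56, 8.11 and 8.28 on those titled control 1 to 4. The higher-numbered arrays were higher by 0.51 (1.42-fold), with a gap of 0.12 between the sets, and by 0.36 and 0.65 within the arrays titled experimental and control. Between the titled groups Axin2 differed by 0.18 ± 0.21 (SE, interval −0.30 to 0.66), and it was the higher of the pair in the array titled experimental within all 4 numbers, by 0.48, 0.18, 0.03 and 0.03. The second Axin2 spot, at 3.29 to 4.33, overlapped by number (−0.03) and was lower on the arrays titled experimental (−0.36), opposite to the brightest spot. Without control 1 the brightest spot differed by 0.06 between the titled groups. Nkd1, which binds Dishevelled, lay at 9.77 to 10.26 on the 8 arrays, differed by −0.10 ± 0.12 (SE, interval −0.38 to 0.17) between the titled groups and by −0.17 by number, and both divisions overlapped.

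The membrane E3 ubiquitin ligases Rnf43 and Znrf3, which remove Frizzled receptors from the cell surface, differed on their brightest spots. Rnf43 was 9.62, 9.41, 9.86 and 9.74 on the arrays titled experimental 1 to 4 and 8.98, 9.60, 9.81 and 9.75 on those titled control 1 to 4. The higher-numbered arrays were higher by 0.39 (1.31-fold) with a gap of 0.12, and the array titled control 1 was the lowest of all, without which the difference was 0.25. Znrf3 was 8.25, 7.95, 8.24 and 7.63 on the arrays titled experimental 1 to 4 and 8.47, 8.13, 8.27 and 8.20 on those titled control 1 to 4. The lower- and higher-numbered arrays overlapped (−0.12), and within each number the array titled experimental was the lower of the pair. Between the titled groups Rnf43 differed by 0.12 ± 0.20 (SE, interval −0.33 to 0.58) and Znrf3 by −0.25 ± 0.16 (SE, interval −0.62 to 0.12). The other 2 Znrf3 spots differed by −0.01 and 0.43 between the titled groups and by 0.23 and 0.33 by number, so their direction by number was that of Rnf43, and the second Rnf43 spot, at 2.79 to 4.15, by −0.21 between the groups and by −0.02 by number.

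**Figure D2:**
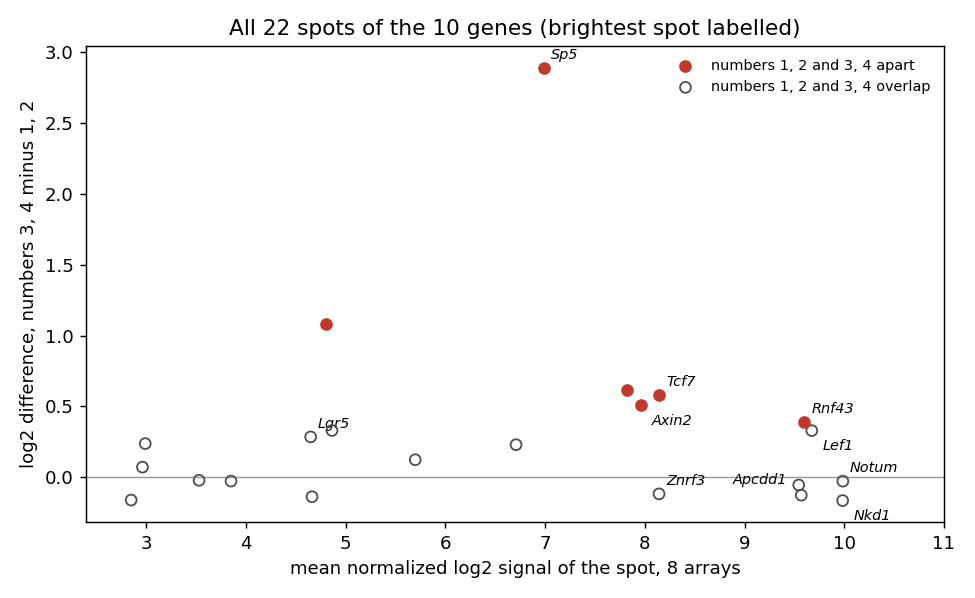
Difference between higher- and lower-numbered arrays on the log2 scale (y axis) against the mean normalized log2 signal (x axis) for the 22 spots of the 10 genes, with the brightest spot of each gene labelled. Filled points are spots whose higher- and lower-numbered arrays do not overlap: Sp5, all 3 spots of Tcf7 (0.58, 0.62 and 1.08), and the brightest spots of Axin2 and Rnf43, whose other spots are dim and lie near 0.

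Lgr5, a receptor for R-spondins that marks stem cells in several epithelia, was the dimmest gene of the set on its best spot. Its signal was 5.0, 5.01, 4.87 and 4.90 on the arrays titled experimental 1 to 4, and 2.96, 5.06, 4.44 and 4.96 on those titled control 1 to 4. A single low array, control 1, set its spread, and the titled groups differed by 0.60 ± 0.42 (SE, interval −0.36 to 1.55), or by 0.13 without that array. By number it differed by 0.28, which turned to −0.23 without the array titled control 1, and then the higher-numbered arrays lay wholly below the others. The second Lgr5 spot, at 2.44 to 3.59, lay close to the lowest value of the data, 2.00, and is not read.

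The 2 remaining genes encode inhibitors that act outside the cell or at its surface, and their brightest spots spanned 0.37 and 0.45 log2 units over the 8 arrays. Notum, a secreted enzyme that strips the lipid from Wnt proteins, was 10.08, 10.15, 10.03 and 10.01 on the arrays titled experimental 1 to 4 and 9.78, 9.99, 10.03 and 9.82 on those titled control 1 to 4. It was higher on the arrays titled experimental by 0.16 ± 0.10 (SE, interval −0.07 to 0.39), and differed by −0.03 by number. Its dimmer second spot, at 3.57 to 5.28, differed by 0.80 between the titled groups, and the mean of both spots by 0.48. Apcdd1, a membrane glycoprotein that binds Wnt and Lrp proteins, ran from 9.37 to 9.81, differed by −0.14 ± 0.12 (SE, interval −0.43 to 0.14) between the titled groups and by −0.13 by number, its second spot gave −0.10 and −0.06, and its dimmest spot, with a mean of 5.70, went the other way with 0.14 and 0.12. Axin2, Tcf7, Znrf3 and Apcdd1 were the 4 of 10 genes with the same sign of experimental minus control within all 4 numbers, against 11.8% of all genes, with both signs among them.

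**Figure D3:**
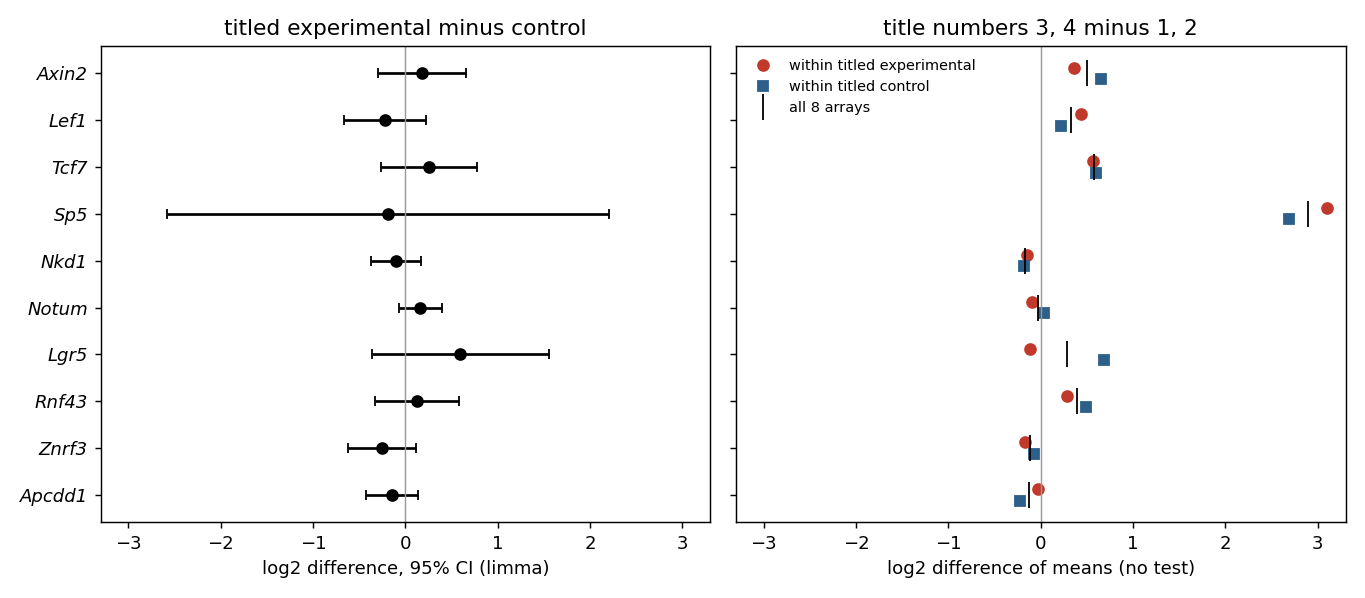
Left, log2 difference between the arrays titled experimental and control for each gene, with the 95% confidence interval of limma's unpaired fit, all of which include 0. Right, log2 difference between the arrays numbered 3 and 4 and those numbered 1 and 2, over all 8 arrays (bars) and within the arrays titled experimental (circles) and control (squares), where Sp5 lies at 2.89, 3.10 and 2.69 and the other genes lie within 0.69 of 0.

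Windows at RefSeq starts of the other 3 genes whose arrays separated by number are shown beside that of Sp5. Each was the window with the most upstream start among those RefSeq lists here for its gene, cut as for Sp5, and held 0 Tcf/Lef heptamers, so no base is in capitals. In the Tcf7 window an ATG lies before the start used, and its frame has no stop codon up to the window's end. That window may therefore be largely coding sequence, and its 0 matches do not describe the promoter of Tcf7. The windows were chr11:108920099-108920398 (plus strand) for Axin2, chr11:52282965-52283264 (minus strand) for Tcf7 and chr11:87662837-87663136 (plus strand) for Rnf43, in GRCm38.p6.
Axin2 promoter: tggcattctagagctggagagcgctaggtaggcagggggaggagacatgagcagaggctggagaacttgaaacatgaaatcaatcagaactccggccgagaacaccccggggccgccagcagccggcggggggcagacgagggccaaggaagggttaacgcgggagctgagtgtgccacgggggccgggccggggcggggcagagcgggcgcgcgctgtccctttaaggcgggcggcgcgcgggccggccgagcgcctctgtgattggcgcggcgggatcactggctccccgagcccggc
Tcf7 promoter: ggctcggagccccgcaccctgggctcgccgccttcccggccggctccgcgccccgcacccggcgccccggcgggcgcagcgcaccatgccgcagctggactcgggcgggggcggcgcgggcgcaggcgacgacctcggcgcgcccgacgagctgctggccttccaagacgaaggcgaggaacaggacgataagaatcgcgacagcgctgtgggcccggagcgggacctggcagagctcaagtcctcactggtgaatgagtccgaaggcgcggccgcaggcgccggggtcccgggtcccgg
Rnf43 promoter: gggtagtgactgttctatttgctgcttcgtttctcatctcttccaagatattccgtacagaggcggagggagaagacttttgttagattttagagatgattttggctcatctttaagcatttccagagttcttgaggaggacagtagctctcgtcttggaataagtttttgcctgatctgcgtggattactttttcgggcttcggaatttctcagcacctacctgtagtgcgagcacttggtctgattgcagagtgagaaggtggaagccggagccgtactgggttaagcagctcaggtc
Windows were matched by symbol for 6 of the 10 genes, 11 windows in all, with Notum, Lgr5, Znrf3 and Apcdd1 not analysed here, and 2 of the 11, that of Sp5 and 1 of Lef1, had a Tcf/Lef match. The Ets string CCGGAAG, on either strand, occurred in 2 of the 11, namely a second window of Tcf7 (from −25 to −19) and a second window of Rnf43 (from −65 to −59), and in 8.86% of all windows. No match says only that these letters are not in the window.

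Gene by gene, the likeness of profiles was measured as the root mean square difference between signals centred on each gene's own mean over the 8 arrays, for the 3 genes that spanned at least 1 log2 unit. Nearest to Sp5 were Pcsk6, a proprotein convertase (0.27), Etv5 (0.39) and Dram1, a lysosomal membrane protein (0.45), against a spread of 1.52 for Sp5 itself. Pcsk6 was 8.70, 8.51, 11.38 and 11.08 on the arrays titled experimental 1 to 4 and 8.55, 9.60, 11.49 and 11.32 on those titled control 1 to 4. It shared with Sp5 the intermediate value of control 2, which was less marked in Etv5 (10.57) and absent in Dram1 (5.93, beside 5.94 in control 1). Nearest to Tcf7 were Eef1aknmt (0.07), Nacc1 (0.08) and Greb1 (0.08), against a spread of 0.33. For Lgr5 they were Fat2 (0.36), Tmem2 (0.36) and Slc35d1 (0.39), against 0.66, and all 3 had their lowest value on the array titled control 1. These profiles come from the same 8 arrays and are a description.

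**Figure D4:**
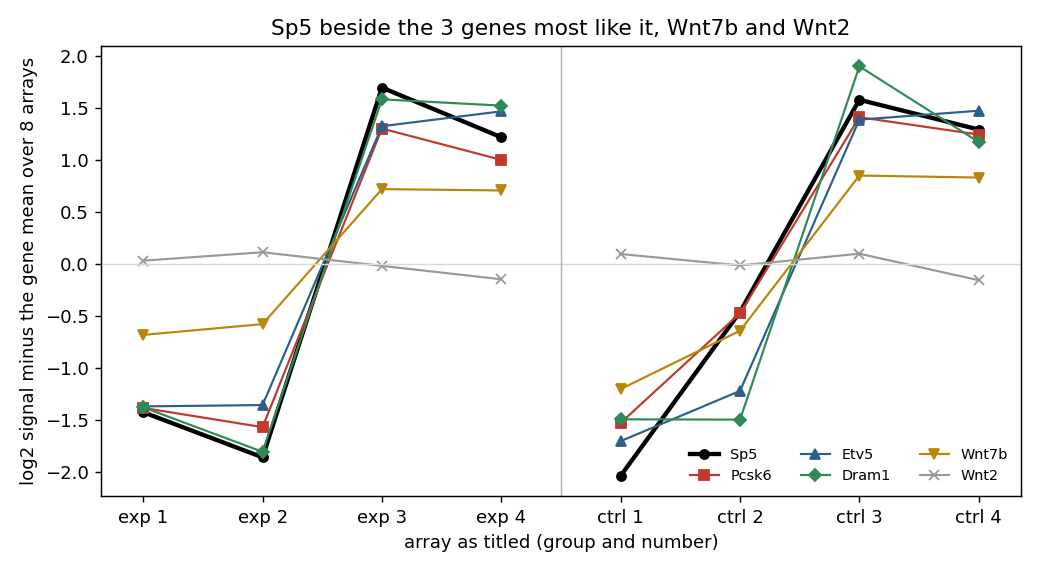
Log2 signal minus the gene's mean over the 8 arrays (y axis) on each array as titled (x axis). Shown are Sp5, the 3 genes most like it among those above the median of all genes, the ligands Wnt7b (epithelial) and Wnt2 (mesenchymal). Sp5, Pcsk6, Etv5 and Dram1 lie below 0 on the arrays numbered 1 and 2 of both titled groups and above 0 on those numbered 3 and 4, Wnt7b takes a smaller step of 1.55, and Wnt2, at 11.48 to 11.75, is nearly flat.

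The other genes of the pathway were described from 7 lists, with 100 genes measured, 3 of them in more than 1 list. Between the titled groups 46 were higher and 54 lower by sign, with a median of −0.01, and 0 passed (limma, smallest adjusted p = 0.9998, 3 genes at an unadjusted p under 0.05). Those 3 were Cdx1, an intestinal homeobox gene (0.73 ± 0.18, SE), the secreted Wnt inhibitor Sfrp4 (−0.49 ± 0.18) and the receptor Fzd8 (−0.40 ± 0.17), and all 3 were below the median of all genes, 5.79, with means of 3.21, 3.45 and 5.55. By number, the higher-numbered arrays lay wholly above in 14 and wholly below in 13 of the 100 genes, where all genes had 5.39% and 5.17%. These shares depended on signal, and were 8.88% and 8.45% among genes above the median. The 3 genes at an unadjusted p under 0.05 stood beside 3.56% of all genes. The median difference by number was −0.06, against 0.31 for the 10 target and feedback genes.

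Among the 19 Wnt ligands, 2 lay wholly above and 3 wholly below. The epithelial ligand Wnt7b was 8.51, 8.61, 9.91 and 9.90 on the arrays titled experimental 1 to 4 and 7.99, 8.55, 10.04 and 10.02 on those titled control 1 to 4, a difference by number of 1.55. Wnt7a differed by 1.05 and Wnt4 by −1.14. Wnt2 was level at 11.48 to 11.75, and Wnt2b was near the lowest values, at 2.59 to 3.34. Wnt5a (−0.39) and Wnt11 (−0.75), best known for signaling without beta-catenin, were the other ligands that lay below and were picked out after their values were seen.

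Of the 17 receptors and co-receptors, 5 lay wholly above, among them Fzd7 (0.76) and Fzd10 (0.72), and 2 wholly below, among them the R-spondin receptor Lgr6 (−0.45). Of the 18 genes listed as secreted modulators, a list that also holds Dkk receptors, 0 lay above and 3 below. These were the R-spondins Rspo1 (−0.73) and Rspo2 (−0.61), which protect Frizzled receptors from Rnf43 and Znrf3, and the Dkk receptor Kremen1 (−0.41). Cytoplasmic transduction genes moved little, with 1 of 16 above (Dvl1, 0.19) and 1 below (Tnks, −0.30), and Ctnnb1, which encodes beta-catenin, was 12.93 to 13.18 on all arrays. Among 12 nuclear effectors and corepressors, Tle3 lay above (0.28) and Hbp1 below (−0.38). Wls, Porcn and Tmed5, the 3 genes of Wnt secretion, overlapped. Of 18 other genes described as Wnt targets, 6 lay above, led by Sox9 (1.98), Fzd7 (0.76) and Ccnd1 (0.63), and 3 lay below.

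**Figure D5:**
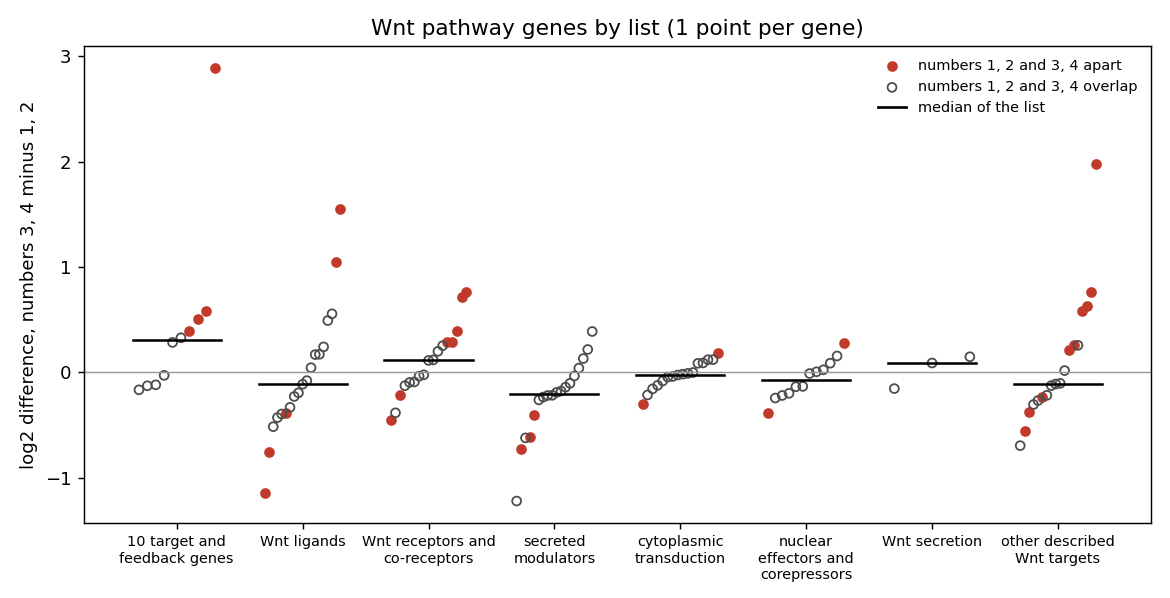
Log2 difference between the arrays numbered 3 and 4 and those numbered 1 and 2 (y axis) for each gene of the 10 target and feedback genes and of 7 lists of other Wnt pathway genes (x axis), with the median of each list as a bar. Filled points are genes whose higher- and lower-numbered arrays do not overlap. The target and feedback genes have a median of 0.31, the secreted modulators of −0.20, and the other lists between −0.11 and 0.11.

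Some markers of cell types also went with the number. The mean log2 signal of 6 genes of lung epithelium (Nkx2-1, Epcam, Cdh1, Krt8, Krt18 and Cldn6) ran from 10.88 to 11.20 on the lower-numbered arrays and from 11.25 to 11.45 on the higher-numbered ones. Of the 6 genes, 3 lay wholly above, namely Nkx2-1 (0.76), Cldn6 (0.67) and Epcam (0.33). The others overlapped, with Cdh1 higher (0.18) and Krt8 (−0.07) and Krt18 (−0.11) lower on the higher-numbered arrays. For 6 genes of distal tip epithelium (Sox9, Id2, Etv5, Sftpc, Bmp4 and Foxp2) the mean ran from 9.75 to 9.97 and from 11.48 to 11.60, and all 6 lay wholly above. The division by number was noticed from Etv5, so its place among the 6 is no separate result. For the smooth muscle genes Acta2, Myh11, Tagln and Cnn1 the mean ran from 12.29 to 12.74 and from 11.78 to 11.98, and all 4 lay wholly below. Counted by gene, mesenchyme (1 above and 2 below of 8), endothelium (0 of 5), leukocytes (1 below of 4), cardiac muscle (1 below of 4) and neural cells (1 above of 2) had mixed or no separation. The mean of the 4 leukocyte genes did separate, at 10.07 to 10.19 on the lower-numbered and 9.87 to 10.03 on the higher-numbered arrays. The means of 4 airway genes (8.29 to 8.92 and 8.04 to 8.91) and 3 mesothelial genes (7.34 to 7.97 and 7.48 to 7.72) overlapped, as did that of 3 erythroid genes, which reached 10.53 and 10.73. Those of 4 cardiac genes (10.74 to 11.32 and 10.49 to 11.05) and 2 neural genes (4.34 to 5.74 and 4.57 to 5.53) overlapped too. Between the titled groups the cardiac mean did not overlap, at 10.49 to 10.86 on the arrays titled experimental and 11.02 to 11.32 on those titled control. All 4 cardiac genes were lower by sign (median −0.49), and 0 of the 4 passed. All measured genes of airway epithelium, smooth muscle, mesothelium and neural cells were lower too, with medians of −0.21, −0.13, −0.17 and −0.53. Their means overlapped between the titled groups. Most genes were higher by sign in lung epithelium (5 of 6), mesenchyme (7 of 8), endothelium (4 of 5), leukocytes (3 of 4) and erythroid cells (2 of 3). The part of cardiac tissue in the differences between titled groups was not tested. The part of epithelial content in the steps of Sp5, Tcf7, Axin2 and Rnf43 was not tested, and in RNA of a whole lobe fewer cells of a type and less RNA per cell cannot be told apart.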

How the data were processed

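Expression was measured on 1-colour Agilent mouse arrays (Cy3) hybridized with amplified total RNA of 8 left lung lobes. Per the study's methods, the authors extracted mean spot signals, corrected background by normexp on negative control spots with an offset of 1, took logarithms and quantile-normalized between arrays with limma. Log2 signals of 62976 spots per array were deposited in that form. The base of the logarithm, 2, was taken from the range of the values, 2.00 to 16.00. Each array had a median of 4.43, and array pairs correlated at 0.986 to 0.992 across genes (genes are no replicates). No detection calls were used, and the number of arrays limits the precision. Signals near the lowest and highest values are compressed.

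A total of 2 spots without a value on an array were left out. The platform annotation named 43941 spots, and symbols were updated through RefSeq transcript accessions (matched for 33704). The spot with the highest mean stood for each of 24583 genes. Titled groups were compared by limma 3.58.1 (lmFit, then eBayes; R 4.3.3) over all genes, unpaired and two-sided, with Benjamini-Hochberg adjustment, no filter on dim genes, and adjusted p under 0.05 as passing. The fit was tested on simulated data with reduced, independent noise and no step by title number. How it performs on data with such a step was not tested. Differences are experimental minus control with standard error (SE) or 95% confidence interval. An unmoderated form of the test was run on the same values, whereas the study's methods name a moderated one.

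After subtraction of group means, the 2 arrays of a number correlated at 0.109, 0.146, 0.124 and 0.117 for numbers 1 to 4, each above the limit of 0.1 used here, so the fit with the title number as a block was run beside the unpaired one. The pairing rests on these correlations, not on a statement in the labels. Arrays of lower (1 and 2) and higher (3 and 4) title numbers were compared by values and overlap, without a test.

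The members and lists were chosen with earlier results of these data known, and 1 of the 10 genes, Sp5, was also named by the study from these arrays. Named genes were the 10 members, a few lung and ligand genes, and the 3 likest profiles among genes above the median. Each pathway list gave up to 2 genes with the smallest p, Cdx1, Sfrp4 and Fzd8 among them. It also gave up to 3 with the largest difference by number among genes above the median. Promoter windows were those of RefSeq (GRCm38.p6). Alternatives were other spot rules, a filter on dim genes, other moderation, centring of arrays, blocks and omission of each array.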

Additional observations from a re-analysis of the deposited data

How the results depend on the processing

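Over the 149 values of the 10 genes under alternatives of the fit, 0 passed (smallest adjusted p 0.999) and 8 changed sign. With the mean of all spots of a gene, Axin2 turned to −0.0912, Rnf43 to −0.0430 and Znrf3 to 0.0567. When 1 array was left out, Sp5 ranged from −0.90 to 0.40 and Rnf43 from −0.0632 (without control 1) to 0.213. Among genes that did not pass, Znrf3 came to −0.12 without experimental 4, Nkd1 to −0.03 without control 2 and Apcdd1 to −0.09 without control 1. The count of genes passing was 0 in each alternative, and with the replicate block it was 0 as well, which changed no call. Without a test, the difference by title number moved by more than the spread within the numbers in 2 of 120 values, both with the mean of all spots (Axin2 0.24, Znrf3 0.15, for Znrf3 a change of sign). The count of genes separated by number was 2 with the mean of all spots, where 8.94% of all genes separated in either direction (10.6% with the brightest spot), and 4 to 5 when 1 array was left out, where 13.5 to 15.5% of all genes separated. The fifth gene was Lef1 without experimental 4, Lgr5 without control 1 and Nkd1 without control 3. The number of arrays and, for Lgr5 and the second spots of Axin2, Lef1 and Rnf43, dim signals limit these values.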
